A study of Mus musculus with 2 samples.

Results

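The genes described here encode factors that regulatory T cells (Treg) release to restrain immune responses or to help tissue repair. The members were taken by name, as every probe set that the platform annotation pairs with exactly 1 gene symbol among 9: Il10, Ebi3, Il12a, Fgl2, Lgals1, Lgals3, Areg, Penk and Anxa1. Of these 9 genes, among 18194 genes with such a probe set in all, 8 had a probe set and together they had 11. No probe set was paired with Areg, the growth factor amphiregulin, and it was not analysed here.

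RNA came from Treg of spleen and lymph nodes, taken from female mice of 6 to 8 weeks, FACS-sorted, and was read on 2 Affymetrix arrays, 1 per genotype. Both genotypes carried Foxp3 Cre/wtS, a Cre recombinase at 1 of the Foxp3 alleles, per the sample labels; the series' design text writes Foxp3 Cre/wt for the fl/fl mice. One array held Stat3 fl/wt Treg, with 1 loxP-flanked (floxed) Stat3 allele, and the other Stat3 fl/fl Treg, with 2. Cre driven from Foxp3 is active in cells that express Foxp3, and because Foxp3 lies on the X chromosome, a female with 1 Cre allele also holds Treg that use the other X and keep Stat3. Whether the sort left those cells out, and how many mice gave each sample, the labels leave unsaid. Neither genotype was replicated, so each difference below describes these 2 arrays and has no p-value.

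Treg restrain other cells by direct contact and by what they secrete. IL-10 is a cytokine that acts on macrophages, dendritic cells and T cells through a receptor that signals by Stat3, and Stat3 is also among the factors that can act on the Il10 gene. IL-35 is a dimer of Ebi3 and the p35 chain encoded by Il12a, galectins bind sugars on surface glycoproteins, and amphiregulin acts on epithelial and stromal cells through the EGF receptor.

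Levels are the log2 values the authors deposited, and differences are fl/fl minus fl/wt on the log2 scale. A gene counts as measured if it reached log2 5 in at least 1 array, and a value under 5 was set to 5. A level cannot be set against that of another probe set, since each binds with its own strength. Of the 11 probe sets, 8 reached log2 5 in both arrays, 1 in the fl/wt array only and 2 in neither, so that 7 of the 9 genes were measured. The gene Stat3 itself was nearly equal in both arrays: its 3 probe sets above log2 5 differed by -0.083, -0.019 and -0.0083. Their position with respect to the floxed exons is unknown here, so they do not check the labels. Among Treg markers, Ctla4 read 14.91 in fl/wt against 14.87 in fl/fl and Ikzf2 13.88 and 13.86, while the only probe set of Foxp3 did not reach log2 5 in either array (4.09 and 3.52). The 2 further Ikzf2 probe sets went the opposite way to its brightest, by 0.040 and 0.049.

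The secreted factors were close to equal in the 2 genotypes, and annexin A1 was the member furthest apart. None of the 7 measured genes differed by 1.5-fold, as did 0.645% of all 9774 measured genes (0.399% lower and 0.246% higher in fl/fl). By level, that share was 0% at log2 11 to 13 and at 13 to 17, the bands of 5 of the 7. It was 0.031% at log2 9 to 11, the band of Fgl2, and 0.76% at 7 to 9, the band of Anxa1. The absence of members past 1.5-fold therefore does not set them apart from other genes of their level. Of the 7, 3 were higher and 4 lower in fl/fl, with a median difference of -0.00092, against a median of -0.0045 over all measured genes, of which 47.5% were higher and 52.5% lower. A difference under 0.02 in size was seen for 5 of the 7 members and for 21.6% of all measured genes, and one under 0.1 for 6 of the 7 and for 73.2%. Those 5 lie at log2 11 and above, where differences were smaller for genes in general. Their median size was 0.037 at log2 11 to 13 and 0.023 at 13 to 17, against 0.053 over all measured genes. The 21.6% is therefore not a share among genes of like level. With each array centred on its median over all probe sets, the count under 0.02 fell to 1 of the 7 members and to 17.5% of all measured genes. Those medians, 3.47 in fl/wt and 3.50 in fl/fl, lie under log2 5. The count stayed at 5 with quantile normalisation, which matches the distributions of the arrays, and with loess, a curve fitted against level. The spread over all genes narrowed with level, from an SD of 0.25 at log2 5 to 7 (931 genes) to 0.061 at log2 11 to 13 (2524 genes), so small differences are read within a band of level. These SDs are taken over genes and are not replicate errors.

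Il10, the anti-inflammatory cytokine, read 11.83 in the fl/wt array and 11.82 in the fl/fl array. Its difference of -0.0074 was a ratio of 0.995 of fl/fl over fl/wt. Of the 2524 genes at log2 11 to 13, 2239 differed by at least as much. With the arrays centred on their medians Il10 differed by -0.039, and 58.7% of the genes in this band differed by at least as much. Quantile normalisation gave -0.0048 for Il10 and loess -0.0028.

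Of the IL-35 subunits, Ebi3, the chain that IL-35 shares with IL-27, read 11.83 in the fl/wt array and 11.84 in the fl/fl array, 0.014 apart. In its band of level, 80.9% of genes differed by at least as much. Il12a, the p35 chain that IL-35 shares with IL-12, was under log2 5 in both arrays, at 2.31 in fl/wt against 2.32 in fl/fl. Values that low have no order, so the arrays hold a level for only 1 of the IL-35 chains.

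The galectins Lgals1 and Lgals3 encode sugar-binding proteins that leave the cell without a classical signal peptide. Galectin-1 can dampen activated T cells, and galectin-3 is also abundant in macrophages. Lgals1 was read by 2 probe sets. One stood at 14.73 in both arrays, the other at 13.38 in fl/wt against 13.39 in fl/fl. Their differences of -0.00092 and 0.0075 had opposite signs and were both under 0.01 in size. Both carry a suffix in their ID that marks probes shared between transcripts, so Lgals1 has no value once such probe sets are left out. Lgals3 read 11.87 in both arrays, a difference of 0.0018, and 97.7% of the genes in its band differed by at least as much.

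Penk encodes proenkephalin, the precursor of the opioid peptides known as enkephalins. The fl/wt array read 12.14 and the fl/fl array 12.15, which differ by 0.0064. In its band of level, 90.2% of genes differed by at least as much. The 5 genes Il10, Ebi3, Lgals1, Lgals3 and Penk therefore lay within 0.014 of 0 in either direction. With each array centred on its median, all 5 read lower in fl/fl, from -0.039 (Il10) to -0.018 (Ebi3), and Ebi3, Lgals3 and Penk changed sign, so their signs carry no direction.

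Fgl2, fibrinogen-like protein 2, is a secreted suppressor that acts through inhibitory Fc receptors. Its brighter probe set read 9.41 in the fl/wt array and 9.34 in the fl/fl array, which is -0.067. Of the 3234 genes at log2 9 to 11, 42.3% differed by at least as much. The dimmer probe set stood at 5.40 in fl/wt and at 4.99, just under log2 5, in fl/fl. That is a bound of at least 1.32-fold lower in fl/fl. The central 95% of genes at log2 5 to 7 that reached log2 5 in both arrays ran from -0.62 to 0.47. The dimmer probe set did not reach it in fl/fl, so its floored difference of -0.40 is not placed in that range. Both Fgl2 probe sets read lower in fl/fl, by unlike sizes, and the brighter lay inside the spread at its level. The SD of a single probe set's difference was 0.12, estimated from pairs of probe sets of 4228 genes. Those pairs reached log2 5 in both arrays, which the dimmer Fgl2 probe set did not, so this SD does not measure its gap. As the median over both probe sets, Fgl2 differed by -0.23.

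Anxa1, a protein that binds phospholipids and, once outside the cell, formyl peptide receptors on myeloid cells, had the largest difference of the members. The fl/wt array read 8.00 and the fl/fl array 7.67, which is -0.33 or 1.26-fold lower. Of the 1979 genes at log2 7 to 9, 111 (5.61%) differed by at least as much, and the central 95% of that band ran from -0.35 to 0.33, so the Anxa1 value lay just inside it. The other Anxa1 probe set was under log2 5 in both arrays, at 2.38 and 2.39, so a single probe set carries this difference. Read as the median of both probe sets, the difference was -0.16. In sorted bulk cells, fewer cells that make a transcript and less of it per cell cannot be told apart.

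**Figure D1:**
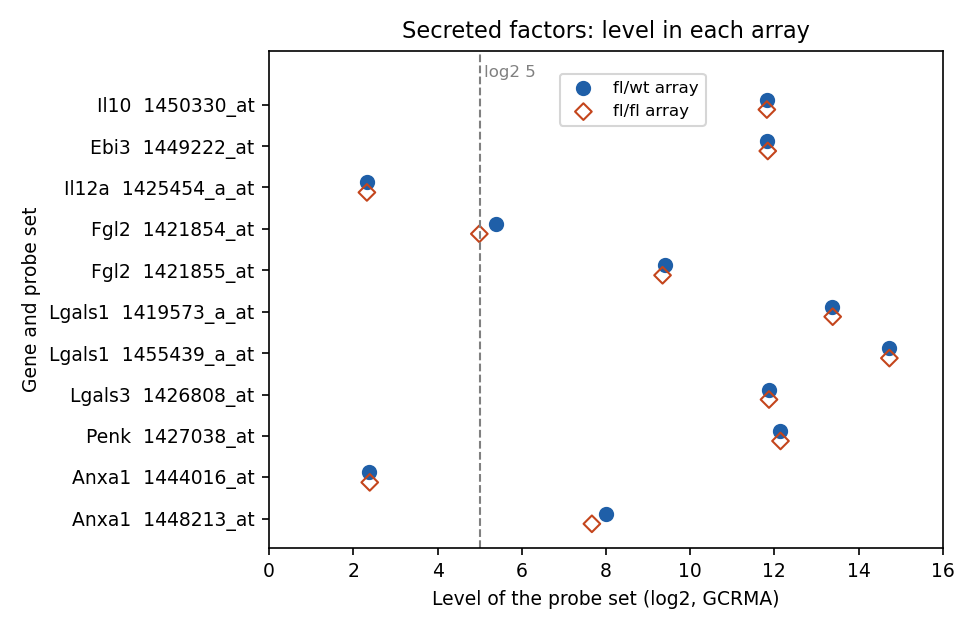
Level of each of the 11 probe sets (log2, horizontal axis) in the fl/wt array (filled circles) and the fl/fl array (open diamonds), with a dashed line at log2 5. The symbols nearly coincide for Il10, Ebi3, Lgals1, Lgals3 and Penk, while Anxa1 reads 8.00 in fl/wt against 7.67 in fl/fl.

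**Figure D2:**
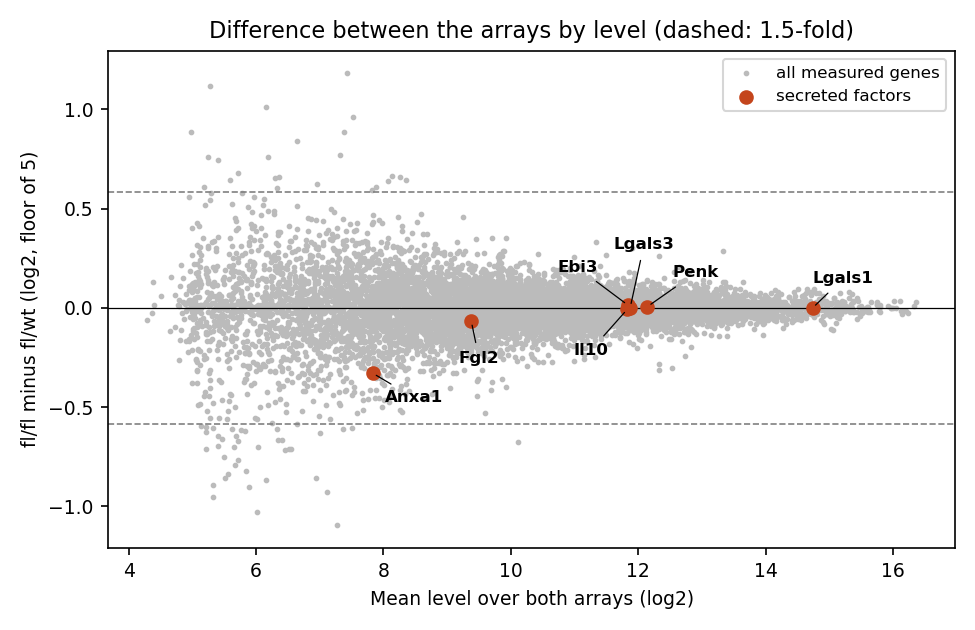
Difference between the arrays (fl/fl minus fl/wt, log2 with a floor of 5) against the mean level over both arrays for all 9774 measured genes (grey) and the 7 measured secreted factors (red), with dashed lines at 1.5-fold. No member reaches a dashed line, and Anxa1 (-0.33) lies in the part of the plot where the grey points spread more widely.

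Promoter sequences are shown for the members with the largest differences, Fgl2 and Anxa1, and for Ebi3, whose difference was near 0, since Stat3 acts at DNA. The RefSeq table of mouse promoters (GRCm38.p6), from 250 bases before to 50 after each start, held 7 windows for 6 of the members, Il12a having 2. Il10, Lgals1 and Penk had no window, so their promoters were not searched. The 7 windows were searched on both strands for the Stat motif TTCNNNGAA, the AP-1 motif TGANTCA and the TATA box TATAAA. No motif overlapped another. The windows lie at chr5:21372423-21372722 on the plus strand (Fgl2), chr19:20390622-20390921 on the minus strand (Anxa1) and chr17:55952373-55952672 on the plus strand (Ebi3). Each is given 5′ to 3′ with the motif matches in capitals.
Fgl2: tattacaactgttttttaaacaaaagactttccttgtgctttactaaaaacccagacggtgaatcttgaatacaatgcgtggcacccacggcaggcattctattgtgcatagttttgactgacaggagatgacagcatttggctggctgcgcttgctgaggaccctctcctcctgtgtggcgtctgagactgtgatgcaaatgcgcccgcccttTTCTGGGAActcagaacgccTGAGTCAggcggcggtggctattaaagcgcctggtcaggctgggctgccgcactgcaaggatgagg
Anxa1: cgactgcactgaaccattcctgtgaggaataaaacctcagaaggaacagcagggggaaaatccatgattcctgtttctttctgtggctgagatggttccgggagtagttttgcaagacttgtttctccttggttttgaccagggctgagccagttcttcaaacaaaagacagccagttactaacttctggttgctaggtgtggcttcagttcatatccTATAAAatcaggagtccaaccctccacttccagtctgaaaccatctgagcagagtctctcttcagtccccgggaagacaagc
Ebi3: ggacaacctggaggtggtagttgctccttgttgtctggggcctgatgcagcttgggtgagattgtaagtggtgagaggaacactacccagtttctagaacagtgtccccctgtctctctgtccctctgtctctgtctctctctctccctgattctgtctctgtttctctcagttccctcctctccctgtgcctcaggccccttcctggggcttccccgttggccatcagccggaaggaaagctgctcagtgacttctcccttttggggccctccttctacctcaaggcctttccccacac

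The Fgl2 window held the Stat motif, as ttctgggaa starting 36 bases before the start site, and an AP-1 motif, as tgagtca starting 16 bases before it. It was the only 1 of the 7 member windows with either motif. Over all 32851 promoter windows of the table, 8.30% held the Stat motif and 7.81% the AP-1 motif. The TATA box was found for Anxa1, 32 bases before its start, and for Areg, 31 bases before, and in 13.6% of all windows. The Ebi3 window held none of these letters. A match is a description of the sequence and shows no binding.

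The receptors through which these factors act were read in the same arrays. Of 21 genes listed, 13 were measured, none past 1.5-fold: 7 were higher and 6 lower in fl/fl, around a median of 0.0091. The IL-10 receptor chain Il10ra read 9.70 in fl/wt against 9.63 in fl/fl. Its partner Il10rb read 12.07 and 12.01, and a further Il10rb probe set went the opposite way, by 0.33. Il6st, the gp130 chain used by IL-6 and reported for IL-35, differed by 0.015, and 1 of its other probe sets went the opposite way. Il12rb2, the other chain reported for IL-35, was under log2 5 in both arrays.

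For the other factors, the inhibitory Fc receptor Fcgr2b, which binds Fgl2, read 7.70 in fl/wt against 7.69 in fl/fl. The activating receptor Fcgr3 differed by 0.12. Fpr2, a formyl peptide receptor that binds annexin A1, read 10.67 and 10.75. Of the EGF receptor family, Erbb3 read 9.45 in fl/wt against 9.47 in fl/fl, while Egfr, Erbb2 and Erbb4 were under log2 5 in both arrays, as were the opioid receptors Oprd1, Oprm1 and Oprk1. Lag3, an inhibitory receptor for which galectin-3 is a reported ligand, had the largest difference of the list, 0.29, at 8.10 in fl/wt against 8.39 in fl/fl. The glycoproteins Ptprc (CD45), Spn (CD43) and Cd7, which galectin-1 binds, differed by 0.051, 0.0091 and -0.053. A further Ptprc probe set went the opposite way, by -0.0086.

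Relatives of the secreted factors were mostly unmeasured or near equal. Over all 11 lists of related genes, 63 of 111 genes were measured, none of them past 1.5-fold: 30 were higher and 33 lower in fl/fl, around a median of -0.0080. The sign of each of the 8 list medians that could be computed turned under at least 1 other setting, so none of them is read as a direction. For the galectins and for other factors that Treg can secrete, it turned only with no floor. That setting adds genes under log2 5. Of the galectin list, 5 of 9 genes were measured, 1 higher and 4 lower, with a median of -0.035; Lgals9 differed by -0.035, Lgals4 by -0.038 and Lgalsl by -0.086, and Lgals3bp, a galectin-3 binding protein, by 0.037. Of the annexin list, 8 of 14 genes were measured, 3 higher and 5 lower, with a median of -0.022. Anxa3 differed by -0.34 (7.06 and 6.72), about as far apart as Anxa1, Anxa7 by 0.18 and Anxa5 by -0.095, and a further probe set of Anxa7 read -0.26. The other IL-10 family and IL-12 family genes with a probe set (Il20, Il24, Il12b and Il23a) and the opioid precursors Pdyn, Pomc and Pnoc were all under log2 5 in both arrays. Of 6 EGF family ligands, only Tgfa reached log2 5, at 5.12 in fl/wt and just under it in fl/fl (4.99).

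Enzymes that release or modify the factors had 9 of 14 genes measured, 5 higher and 4 lower, with a median of 0.0038. Adam17, the protease that sheds amphiregulin, read 11.11 in fl/wt against 11.13 in fl/fl. Rhbdf2, which supports Adam17, differed most, by -0.28 (6.88 and 6.60). Gcnt1, which builds the sugar branches that galectin-1 binds, differed by 0.087 and the convertase Furin by 0.082. Of the prohormone enzymes, Cpe was measured, at 8.45 and 8.38, and Pcsk1 was under log2 5 in both arrays.

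Of other factors that Treg can secrete, 6 of 14 were measured, 2 higher and 4 lower, with a median of -0.032. Tgfb1, the suppressive cytokine TGF-beta1, read 10.72 (fl/wt) and 10.64 (fl/fl), where a further probe set differed by -0.41. Pdgfb differed by -0.12 and Sema4a by 0.058, and a further Sema4a probe set went the opposite way, by -0.044. All 16 transcription factors listed for Il10 and for effector Treg were measured, 9 higher and 7 lower, with a median of 0.014. The AP-1 factor Fosl2 differed most, by -0.29, followed by Pparg (0.15) and Gata3 (-0.071). Fosl2, Rhbdf2 and Anxa3 lay at log2 5 to 7, where the central 95% of all genes ran from -0.62 to 0.47, and Lag3 lay in the band of Anxa1. Prdm1 (Blimp-1) differed by -0.017, Irf4 by -0.057 and Maf by -0.042, each a regulator of Il10, and 3 of the 4 further Maf probe sets went the opposite way. Of the receptors of tissue repair Treg, 5 of 7 were measured, with 3 higher and 2 lower and differences of -0.033 (Klrg1) to 0.041 (Ccr8), and Il18r1, a chain of the IL-18 receptor, differed by -0.022.

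**Figure D3:**
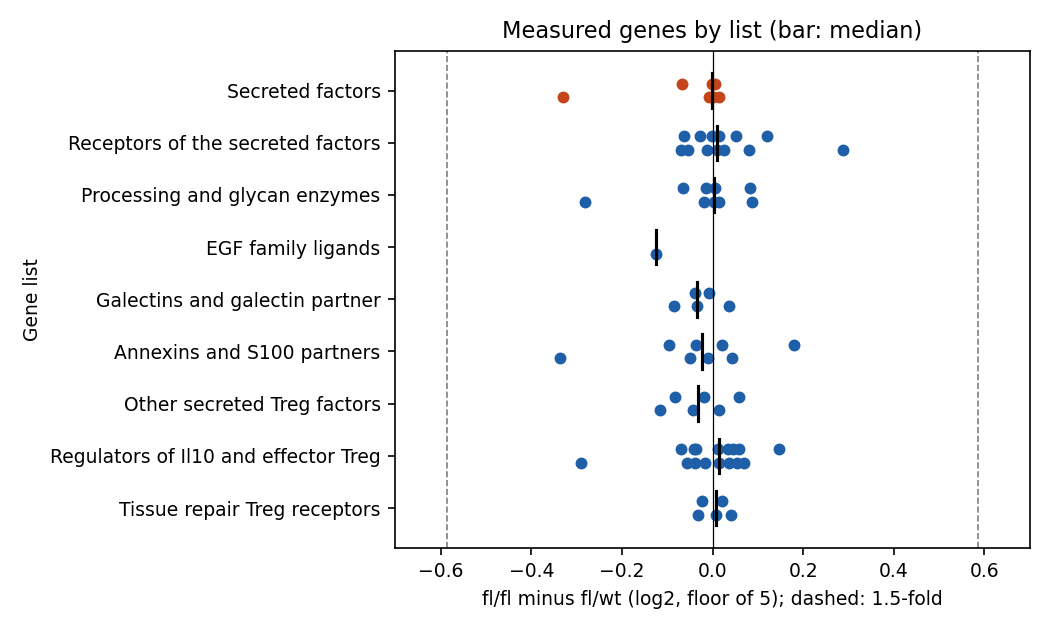
Difference between the arrays (fl/fl minus fl/wt, log2 with a floor of 5) of each measured gene, by list, with the secreted factors in red, a bar at each list's median and dashed lines at 1.5-fold. No gene of any list reaches a dashed line, and the outermost points are Anxa1 and Anxa3 on the lower side and Lag3 on the higher.

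Several of these factors are also made by myeloid cells, so markers of other cells were read beside them. All 9 macrophage and monocyte markers with a probe set, of 10 listed, were measured in both arrays. Csf1r, the receptor that macrophages depend on, read 13.99 in fl/wt and differed by 0.015, and the complement gene C1qa read 13.83 in both arrays. The 2 further Csf1r probe sets went the opposite way, by -0.058 and -0.055. Of these 9 markers, 5 were higher and 4 lower in fl/fl, from -0.071 (Lyz2) to 0.23 (Spi1). Their summed signal was log2 15.93 (fl/wt) against 15.92 (fl/fl). Such a sum weighs the brightest probe sets most, so Spi1 hardly enters it, and it does not measure cell content. Macrophage transcripts were thus present in both arrays, and how much of the Lgals3, Fgl2, Anxa1 or Il10 signal came from such cells was not tested. Of the B cell markers 4 of 6 were measured, with a summed signal of 10.74 and 10.66 and Pax5 under log2 5, and of the CD8 and NK markers 3 of 5, with 11.16 and 11.17 and Ncr1 under log2 5. The 4 neutrophil markers and the 4 mast cell and basophil markers with a probe set were under log2 5 in both arrays, and of the dendritic and the stromal markers only Itgax and Pecam1 were above it. The 6 measured Treg markers had a summed signal of 16.29 and 16.27, with 1 higher and 5 lower in fl/fl.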

How the data were processed

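RNA of Treg from 2 Stat3 genotypes was measured on 1 Affymetrix array each. The authors deposited log2 values for 45101 probe sets, made with GCRMA per the submitters' processing notes; its version and settings, and which arrays were normalised together, are unknown here. The method takes off a sequence-based background and aligns the arrays, and dim probe sets end up close together without order. Scanner values were not used here.

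From these values, differences were computed with Python 3.11.15 and pandas 2.3.3. Of the probe sets, 34958 had a single gene symbol in the platform annotation. A gene was read by the probe set of highest mean level, with a floor of log2 5. The symbols of all members matched RefSeq by Entrez identifier. No genome build is named for the values, so coordinates are given for the RefSeq promoter windows only. The members, gene lists and thresholds were chosen with earlier results of these data known. All members were named, and of each related list the genes past 1.5-fold, the 3 with the largest differences and direct receptors; further genes were named as examples after their values were seen. The number of arrays limits the precision. The counting of differences was tested on simulated data with planted differences well past 1.5-fold. That test does not bear on differences as small as those of the members. Alternatives were floors of 4 and 6, no floor, 32 added on the linear scale, 3 scalings and 2 ways of choosing probe sets.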

Additional observations from a re-analysis of the deposited data

How the results depend on the processing

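No member passed 1.5-fold as reported, so none could pass 2-fold, and none passed 1.5-fold under the 9 other settings. Il10, Ebi3, Lgals3 and Penk each have 1 probe set, well above every floor. Their values could therefore not change with the floor or the choice of probe sets. In the values as reported, at most 0.76% of the genes in any member's band of level passed 1.5-fold. These counts therefore do not set the members apart from genes of like level. The median member difference ran from -0.032 (median centring) to 0.0018 (median of probe sets), and 3 of its 9 values had the opposite sign to the value of -0.00092. Median centring moved the median of all genes from -0.0045 to -0.036, and differences of single genes move with it. The count of members under 0.02 in size, recounted after the data were seen, was 1 with median centring against 5 as reported, and 4 to 6 under the 8 other settings. Of 62 alternative values of single members, 5 had the opposite sign, all for members within 0.02 of 0, and 2 lay over 0.12 away from the reported value, which is the probe set SD. Both came from reading the median of probe sets: Fgl2 differed by -0.23 and Anxa1 by -0.16, the latter because its other probe set is set to the floor in both arrays. The 0.12 is pooled over all levels and is a wide margin for members at log2 11 and above. There the SD over genes was 0.061 at log2 11 to 13 and 0.040 at 13 to 17. Over the 9 settings Anxa1 ran from -0.36 to -0.16 and Fgl2 from -0.23 to -0.062, without a change of sign. Of 71 alternative list medians 4 moved, 3 of them for the EGF ligands, where 1 gene is measured, and 11 had the opposite sign. For probe sets under log2 5 the signal does not stand clear of background, so Il12a was not measurable here. No paired analysis was possible because each genotype has 1 array.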
